A study of Mus musculus with 10 samples.

Results

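Alveolar macrophages are the resident macrophages of the airspace, where they take up surfactant and inhaled material. The comparison described here sets macrophages of conditional Bach2 knockout mice that kept a normal surface marker phenotype (the normal-marker library) against macrophages of the control mice of the same line (the conditional control). The members were chosen by sample title and comprise 4 of the 10 samples of the study, 2 per group. All mice were C57BL/6, labelled female and 16 weeks old. In the conditional line Bach2 is floxed and Cre is driven by Cd4. Whether the control mice carry the Cre, the floxed allele or both is not given in the sources used here. The study also holds macrophages of aberrant surface phenotype from conditional knockout mice, and those of wild-type and of germline Bach2 knockout mice, with 2 samples each. The Cd4 driver is active in T cells, and whether Bach2 was lost from the macrophages of these mice cannot be read from the genotype. The normal-marker fraction was taken by its surface markers, and levels of genes encoding such markers may follow from that choice. How many mice gave the RNA of a sample is not given in the sources used here.

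Bach2 encodes a transcription repressor that pairs with small Maf proteins on DNA sites resembling those of AP-1. It restrains effector programmes of lymphocytes. Resident alveolar macrophages depend on the growth factor GM-CSF and the nuclear receptor PPAR-gamma. They carry a distinctive set of receptors, ribonucleases and lipid-handling genes. Macrophages in alternative activation, the state driven by interleukin-4 and related signals, produce arginase, chitinase-like proteins and matrix enzymes.

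Values are FPKM, fragments scaled to transcript length and library size. The depth was about 7.48 M to 9.53 M fragments per sample, and 1 read on a 2 kb transcript was worth 0.0525 to 0.0669 FPKM. The 2 samples of each group correlated at r = 0.993 to 0.998 across genes, against 0.685 to 0.853 for samples of different groups. Their median squared difference was 0.521 to 0.617 times the counting variance, where reads drawn from 1 library give 0.455 and different groups gave 71.3 to 101. The 2 samples of a group were therefore counted as 2 runs of 1 library, and n = 1 library per group throughout. No difference has a replicate check or a p-value. The spread between runs measures sequencing and the processing of its reads, not the spread between libraries. In RNA from a population, fewer cells of a type and less RNA per cell cannot be told apart. Bach2 was near the limit of detection (0.0186 FPKM in the conditional control and 0.0571 FPKM in the normal-marker library), so it could not check the labels. Xist was present and the Y-linked genes Eif2s3y, Ddx3y, Uty and Kdm5d were at 0 in the conditional control and normal-marker libraries. The wild-type and germline knockout libraries, also labelled female, lacked Xist and held the Y-linked gene Eif2s3y at 58.5 and 63.1 FPKM and at 41.1 and 38.7 FPKM, which touches every comparison with them.

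Normal-marker macrophages differed from the conditional control by the size rule in a small share of genes. The higher genes included Fbp1, Igf1, Mmp12 and Arg1, which were near 0 in the control, and the lower genes included Perp, an alveolar macrophage identity gene. Of 34 identity genes, Perp was the 1 gene called. Others stood lower by more than 2-fold, among them Cidec and Il18, or higher by more than 2-fold, among them Car4 and Chil3. The median log2 difference of the 34 genes was 0.06. A gene was called by size: its log2(FPKM + 1) had to differ by 4-fold or more between the libraries, both in the means and whichever runs were paired, and its higher level had to reach 20 FPKM. Of 11336 genes compared, 106 were called higher (0.935%) and 95 lower (0.838%) in normal-marker macrophages. The same rule called 239 genes (2.11%) between the wild-type library and the conditional control, against 201 (1.77%) here. The count of called genes was thus no larger than that between these control libraries, which come from different mouse lines and differ in sex-linked genes. The wild-type level lay between those of the normal-marker and conditional control libraries for 74 of the 106 genes called higher and 67 of the 95 called lower. These genes were picked for a wide gap between those same libraries, so the counts do not show that the wild type is intermediate.

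**Figure D1:**
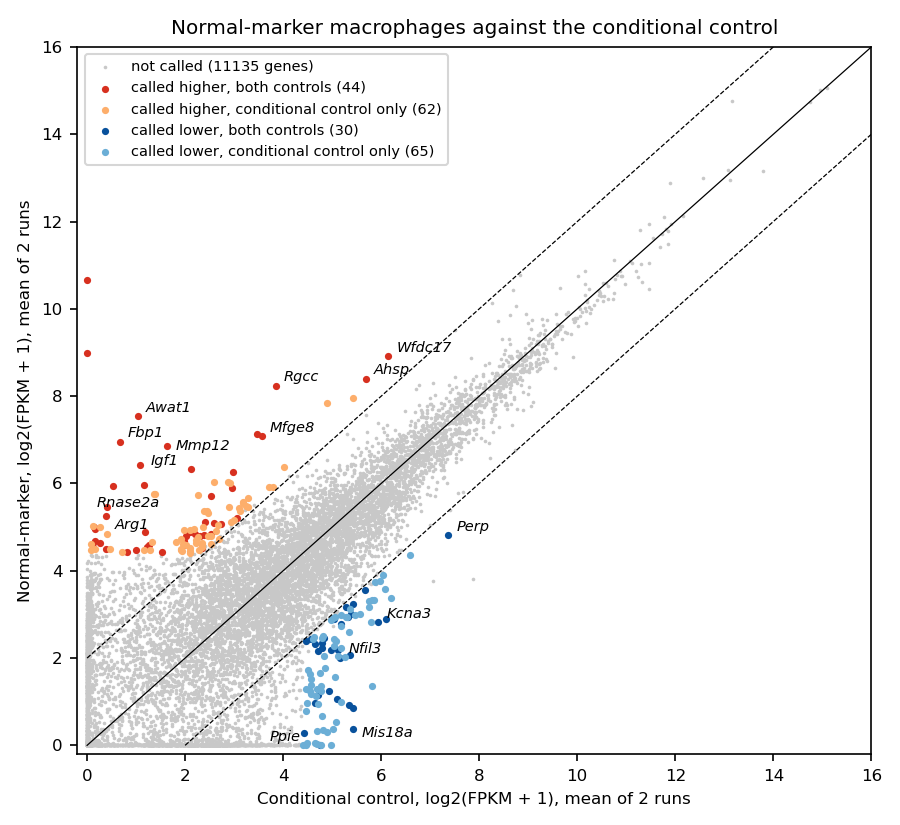
Each point is a gene, placed by its mean log2(FPKM + 1) over the 2 runs of the conditional control (x axis) and of the normal-marker library (y axis); dashed lines mark a 4-fold difference. The 106 genes called higher include several near 0 in the control, while the 95 called lower lie mostly under 50 FPKM, and gray points beyond the dashed lines missed the 20 FPKM floor or a pairing of runs.

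Against both the conditional control and the wild-type library, 44 genes were higher (0.388% of those compared) and 30 lower (0.265%). The remaining 62 higher and 65 lower genes were called against the conditional control only. Against the wild type alone the rule called 155 genes higher (1.37%) and 164 lower (1.45%). Most called genes lay just above the floor: 77 of the 106 higher genes were under 50 FPKM in the normal-marker library, and 79 of the 95 lower genes were under 50 FPKM in the control. At least 100 FPKM in the higher library was reached by 12 of the higher genes and 1 of the lower genes (Perp). A further 38 genes were 4-fold apart in the means but not in every pairing of runs.

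Genes near the floor were at times under 1 FPKM in another library, a level that can still hold several reads. Of the called genes, 22 lower and 21 higher genes were under 1 FPKM in the lower library. Among these, 4 of the lower and 0 of the higher genes were listed at 0. Of 1850 genes at 20 to 50 FPKM in the conditional control, 22 (1.19%) were under 1 FPKM in the normal-marker library and 34 (1.84%) in the wild type. Of 1866 genes at 50 FPKM or more, 0 were under 1 FPKM in either. In the other direction, 17 of 1848 genes (0.92%) at 20 to 50 FPKM in the normal-marker library were under 1 FPKM in the control, and 4 of 1738 (0.23%) at 50 FPKM or more. Each library began with 100 pg of RNA. The part of missed transcripts in the calls under 50 FPKM was not tested. Moreover, 2 predicted genes of the sex chromosomes lead the list of higher genes. They were filled in 1 run and under 1 FPKM in the other run of the aberrant-marker and germline knockout libraries. Both are included in the counts of genes called higher, against the conditional control and against both controls, but are not interpreted further.

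Promoter sequence is shown for the genes that were higher both here and in the germline knockout (described further down) and that held a core AP-1-like site, TGAGTCA or its reverse complement TGACTCA, in the 250 bases before the annotated start. Each is printed 5′ to 3′ on the strand of the gene, with the match in capitals, from RefSeq promoters of GRCm38.p6. Positions are counted upstream from the start site. AA467197 lies on chr2:122637637-122637886 (plus strand), with the match 73 to 67 bases upstream. Ecm1 lies on chr3:95739570-95739819 (minus strand), with the match at 64 to 58. Mmp12 lies on chr9:7347124-7347373 (plus strand), with the match at 44 to 38, in 1 of 2 promoters listed for the gene.
AA467197: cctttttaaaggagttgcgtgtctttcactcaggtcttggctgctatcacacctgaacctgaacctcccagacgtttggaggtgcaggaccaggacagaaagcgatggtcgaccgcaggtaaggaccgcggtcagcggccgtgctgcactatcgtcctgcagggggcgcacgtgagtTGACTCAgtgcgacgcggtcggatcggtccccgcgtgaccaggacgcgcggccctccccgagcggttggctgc
Ecm1: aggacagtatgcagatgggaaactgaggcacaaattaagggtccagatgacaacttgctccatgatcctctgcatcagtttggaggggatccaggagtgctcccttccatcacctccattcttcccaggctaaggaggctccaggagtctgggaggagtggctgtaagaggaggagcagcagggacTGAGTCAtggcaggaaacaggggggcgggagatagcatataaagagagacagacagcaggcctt
Mmp12: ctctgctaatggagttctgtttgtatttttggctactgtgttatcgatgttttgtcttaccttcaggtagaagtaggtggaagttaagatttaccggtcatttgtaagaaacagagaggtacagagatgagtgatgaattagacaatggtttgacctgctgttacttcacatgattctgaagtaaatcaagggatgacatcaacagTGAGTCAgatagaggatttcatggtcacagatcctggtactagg
Of those 26 genes, 24 were matched to a promoter, and the site occurred on either strand in 3 of the 24 (12.5%). It occurred in 6 of 92 matched genes called higher (6.52%), and in 5 of 75 matched genes called lower (6.67%). Over all genes with a promoter it occurred in 1395 of 27025 (5.16%), and over matched genes compared in 352 of 9071 (3.88%). A match describes letters in this window only.

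Awat1 and Fbp1 had the largest rises over both controls among named genes. Fbp1 encodes the gluconeogenic enzyme fructose-1,6-bisphosphatase. It was at 0.581 and 0.593 FPKM in the runs of the conditional control and at 126 and 120 FPKM in those of the normal-marker library, a log2 difference of 6.29. Both normal-marker runs were far above both control runs, and the wild type held 0.046 FPKM. Awat1, an enzyme of wax ester synthesis, was at 0.831 and 1.27 FPKM in the control runs and at 186 and 188 FPKM in the normal-marker runs, a log2 difference of 6.52. Awat1 was also at 32.0 FPKM in the wild type, so its difference was 2.51 against that library. Its levels in the aberrant-marker and germline knockout libraries, 14.9 and 85.2 FPKM, were below the normal-marker level.

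Genes of alternative activation and tissue remodelling were among the called genes. Igf1, the insulin-like growth factor that macrophages release on epithelium and other neighbours, was at 1.11 and 1.12 FPKM in the control runs and at 80.6 and 87.8 FPKM in the normal-marker runs (log2 difference 5.33). Mmp12, the macrophage elastase, was at 2.49 and 1.72 FPKM against 115 and 115 FPKM (5.22). Arg1, the arginase that marks alternative activation, was at 0.385 and 0.236 FPKM against 38.6 and 35.2 FPKM (4.85). For all of these the runs of the groups did not overlap. The wild type held 8.68 FPKM of Igf1 and 3.24 FPKM of Mmp12, and listed Arg1 at 0. Mmp12 and Arg1 were higher in both other knockout libraries than in the normal-marker library, with 279 and 76.1 FPKM in the aberrant-marker fraction and 637 and 273 FPKM in the germline knockout. Igf1 was at 15.4 FPKM in the aberrant-marker library, below the normal-marker level, and at 85.3 FPKM in the germline knockout.

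Other genes higher than both controls encode proteins of varied function. Fstl1, a follistatin-like glycoprotein, was at 0.117 and 0.0898 FPKM in the control runs and at 30.7 and 31.7 FPKM in the normal-marker runs. Ecm1, a secreted extracellular matrix protein, was at 11.4 and 8.77 FPKM against 135 and 143 FPKM. Mfge8, which bridges apoptotic cells to phagocytes, was at 10.2 and 11.4 FPKM against 133 and 138 FPKM. All of these were higher in both runs, with log2 differences of 4.87, 3.66 and 3.53. Wfdc17, a small secreted protein of the whey acidic protein family, was at 69.7 and 69.0 FPKM against 484 and 483 FPKM, a log2 difference of 2.78 from a control level well above the floor. Rgcc, a regulator of the cell cycle, was at 12.8 and 14.0 FPKM against 307 and 297 FPKM (4.39). Both stood above the wild type too, which held 10.3 FPKM of Wfdc17 and 60.1 FPKM of Rgcc. Fam20c, a kinase of secreted proteins, was at 2.88 and 3.64 FPKM against 29.8 and 27.0 FPKM. Lrg1, a secreted leucine-rich glycoprotein, was at 28.4 and 29.0 FPKM against 227 and 231 FPKM (2.95), with 66.2 FPKM in the wild type, and was called against the conditional control only. Its levels in the other knockout libraries were 10.1 FPKM (aberrant-marker) and 25.7 FPKM (germline).

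Among ribonucleases of the eosinophil-associated family, Rnase2a was at 0.702 and 0.177 FPKM in the control runs and at 65.4 and 55.9 FPKM in the normal-marker runs (log2 difference 5.42). Rnase2b was at 12.9 and 12.6 FPKM against 58.3 and 61.3 FPKM (2.14). Both were higher than in the control, whereas Ear1 of the same family went the other way in level, with 978 and 955 FPKM against 468 and 484 FPKM (log2 difference -1.02, not called). Ear2 was at 3668 and 3671 FPKM against 2891 and 2890 FPKM (-0.34, not called). These genes are close relatives, and the deposited values divide shared reads by estimate. The chitinase-like gene Chil3 stood at 9244 and 9088 FPKM against 27882 and 27588 FPKM (1.60), short of the 4-fold rule, with 9278 FPKM in the wild type.

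Genes of lipid mediators were called as well. Pla2g2d, a secreted phospholipase, was at 0.0986 and 0.554 FPKM in the control runs and at 45.0 and 41.6 FPKM in the normal-marker runs (5.06), with under 1 read in the wild type. Ptgs1, the constitutive cyclooxygenase, was at 6.23 and 7.20 FPKM against 58.8 and 59.3 FPKM (2.96), and the wild type held 0.0257 FPKM. Both runs of the normal-marker library exceeded every other library for Pla2g2d (22.5 FPKM in the aberrant-marker fraction and 11.4 FPKM in germline knockout cells) and Ptgs1 (10.4 and 19.6 FPKM). Ptgir, the prostacyclin receptor, was at 1.05 and 1.42 FPKM against 61.7 and 60.5 FPKM (4.80). Pla2g7, which inactivates platelet-activating factor, was at 3.86 and 2.77 FPKM against 22.8 and 21.4 FPKM (2.42). Ch25h, the cholesterol 25-hydroxylase, was at 44.0 and 39.8 FPKM against 252 and 245 FPKM (2.54), with 96.8 FPKM in the wild type. Insig1, an inhibitor of sterol synthesis, was at 5.10 and 5.60 FPKM against 31.8 and 32.0 FPKM (2.37). The wild type, at 44.0 FPKM of Insig1, was above the normal-marker library. Gdf15, a stress-induced cytokine, likewise stood at 6.05 and 7.10 FPKM against 60.8 and 65.5 FPKM with 51.5 FPKM in the wild type.

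Complement and class I genes were called in part. C1qb, a subunit of the C1q recognition complex, was at 0.745 and 1.27 FPKM in the control runs and at 19.5 and 23.1 FPKM in the normal-marker runs (3.47). Its partner C1qa was at 0 in all 4 runs, and C1qc was at 3.92 and 3.86 FPKM against 0.26 and 0.40 FPKM, so the 3 subunits did not move together. C4b, the complement component, was at 0.102 and 0.125 FPKM against 24.7 and 24.9 FPKM (4.54). Ifi47, an interferon-induced GTPase, was at 0.234 and 0.179 FPKM against 23.2 and 24.6 FPKM (4.37). H2-M2 and H2-Q7, class I genes with close relatives, had log2 differences of 4.23 and 3.19. Further genes near the floor were Hk3, a hexokinase (31.4 and 31.0 FPKM in the normal-marker runs), Rpusd1, named for a pseudouridine synthase domain (31.2 and 29.4), and St6galnac4, a sialyltransferase (21.8 and 22.8). All were under 1 FPKM in both control runs. Called against the conditional control only and largest in size were Slc22a18, a transporter, at 31.6 FPKM on average, Hk3, Mustn1 at 23.5, Cirbp, a cold-inducible RNA-binding protein, at 27.7, and Slc7a5, an amino acid transporter, at 21.2. Of these, the wild type held 8.08 FPKM of Hk3 and 12.3 of Slc7a5.

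**Figure D2:**
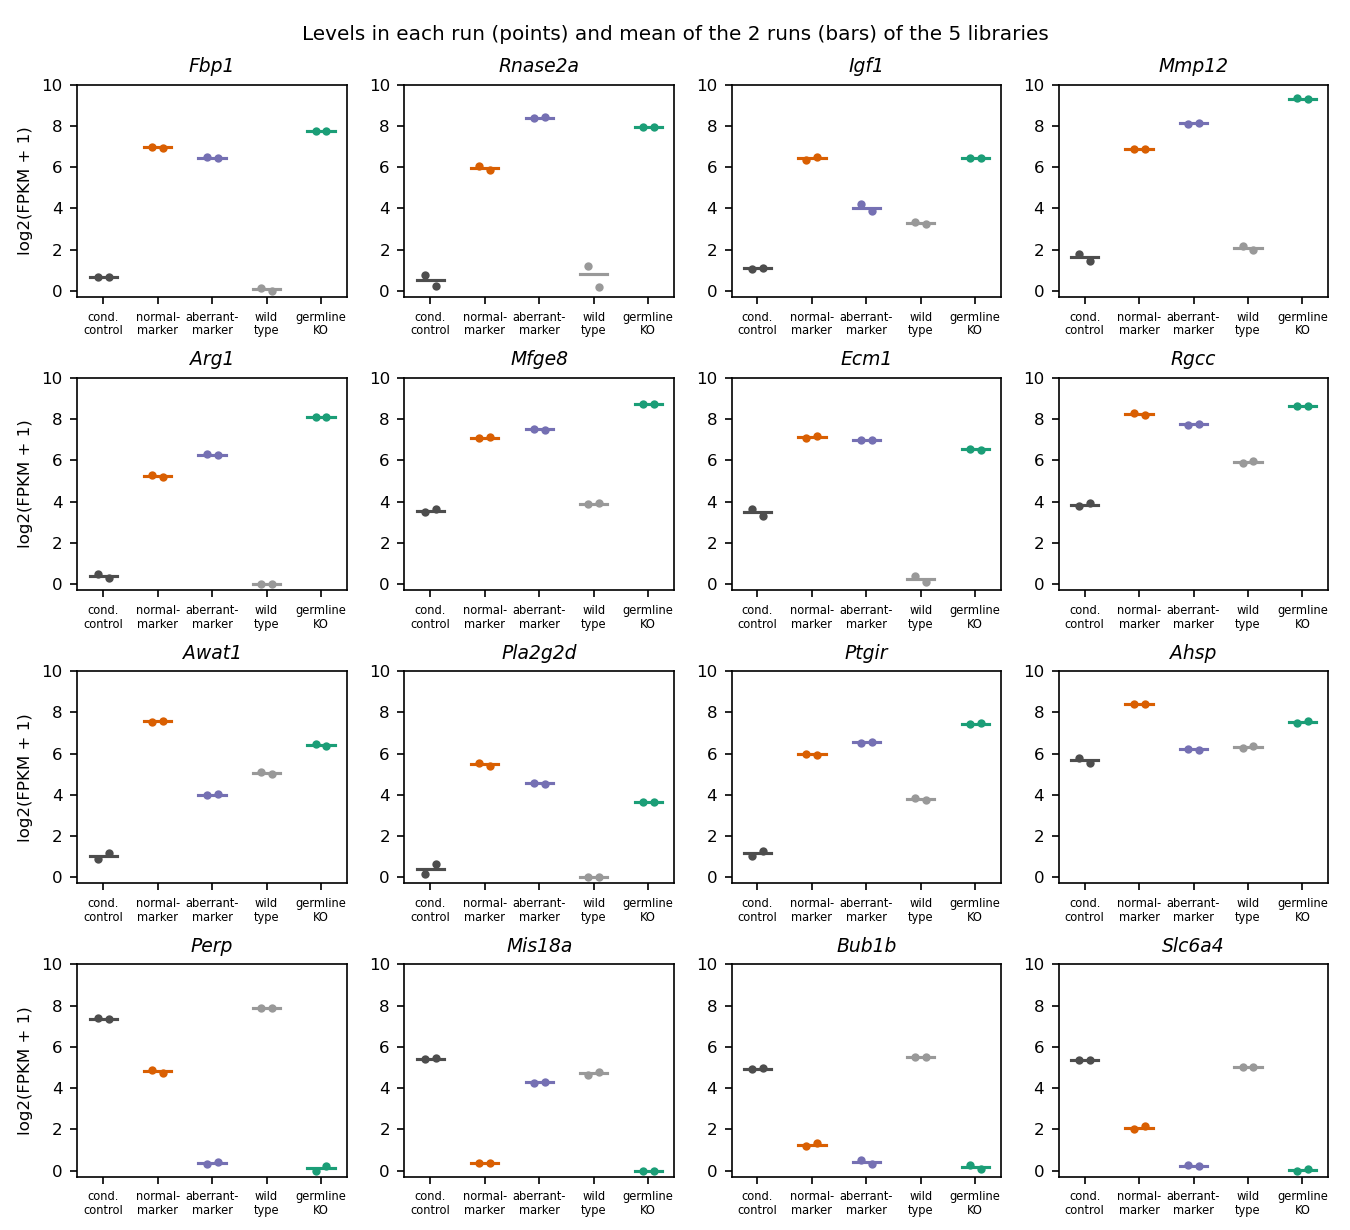
Points are the 2 runs and bars their mean, in log2(FPKM + 1), for 16 called genes in each of the 5 libraries. The 12 genes in the upper rows were higher in the normal-marker library than in both controls, and the 4 in the bottom row (Perp, Mis18a, Bub1b and Slc6a4) were lower.

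Among genes lower than in both controls, Perp, a p53 target of cell junctions that resident alveolar macrophages express, was the most abundant. It was at 165 and 163 FPKM in the control runs and at 28.7 and 25.6 FPKM in the normal-marker runs (log2 difference -2.55). The wild type held 237 FPKM, the aberrant-marker library 0.270 FPKM and the germline knockout 0.0731 FPKM, so the normal-marker level lay between those of controls and the other knockout libraries. Kcna3, a voltage-gated potassium channel, was at 57.6 and 62.4 FPKM against 5.75 and 6.38 FPKM (-3.11). Slc6a4, the serotonin transporter, was at 40.5 and 40.2 FPKM against 3.02 and 3.40 FPKM (-3.30). For both, the aberrant-marker (15.3 and 0.179 FPKM) and germline knockout (7.15 and 0.0238 FPKM) libraries were also below both controls.

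Of the proliferation list, 2 genes were called. Bub1b, a kinase of the spindle checkpoint, was at 29.3 and 29.9 FPKM in the control runs and at 1.29 and 1.48 FPKM in the normal-marker runs (-3.68). Mis18a, which licenses centromeres, was at 40.7 and 43.1 FPKM against 0.289 and 0.300 FPKM (-5.05). Nevertheless, of the 47 genes of this list compared, only these 2 were called, 0 were called higher and the median log2 difference was 0.00. Outside the list, the cell cycle genes Kif2c and E2f1 were called against the conditional control only, in opposite directions. Kif2c was at 20.5 and 21.8 FPKM against 0 and 0 FPKM (-4.47), and E2f1 at 9.34 and 8.22 FPKM against 49.4 and 50.6 FPKM (2.38). Nfil3, a leucine zipper transcription factor, was at 34.5 and 34.8 FPKM against 3.22 and 2.83 FPKM (-3.15). It stood at 87.0 FPKM in the wild type, 145 in the aberrant-marker fraction and 70.5 in germline knockout cells, so the normal-marker library was the lowest of the 5.

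Other falls lay close to the floor. Arsa, the lysosomal arylsulfatase A, was at 33.7 and 33.2 FPKM against 1.11 and 1.08 FPKM, and Inadl, a polarity protein with PDZ domains, at 41.9 and 37.8 FPKM against 1.21 and 0.588 FPKM. Crcp, a subunit of RNA polymerase III, was at 43.5 and 40.5 FPKM against 1.10 and 0.521 FPKM, although the aberrant-marker and germline knockout libraries held 27.9 and 52.9 FPKM. Dhps, which makes hypusine on a translation factor, was at 21.4 and 19.5 FPKM against 0.105 and 0.321 FPKM. Samd10 and Pithd1 had log2 differences of -3.67 and -3.22. Samd10 was at 27.7 and 20.5 FPKM against 1.11 and 0.836 FPKM, but its runs disagreed in other libraries. It was at 9.70 and 88.3 FPKM in the aberrant-marker runs and at 59.0 and 6.29 FPKM in the germline knockout runs. Agpat2, an enzyme of phospholipid and triglyceride synthesis, was at 53.0 and 55.4 FPKM against 5.71 and 6.55 FPKM, but the wild type held 20.1 FPKM. Genes called lower against the conditional control and not against the wild type included Cd69, an early activation marker, at 30.5 and 30.7 FPKM against 0 and 0 FPKM, and Hspa1a, a heat shock protein, at 26.1 and 26.4 FPKM against under 1 read. Cd69 was also at 0 in the wild type. Ccnt1, a partner of the elongation kinase, was at 24.0 and 25.9 FPKM against 0 and 0.0549 FPKM, and Appbp2 and Fam53a, at 30.3 and 32.1 and at 24.7 and 23.6 FPKM in the control, were under 1 FPKM in both normal-marker runs. Hspa1a, Ccnt1 and Appbp2 were also lower than in the wild type, by log2 differences of -3.81, -2.96 and -3.61, but the wild type was under the 20 FPKM floor.

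Of the 34 identity genes in the table, some stood lower and some higher than in the conditional control. Perp was the only one called against it, 0 were called higher, and the median log2 difference was 0.06, against 0.37 for the wild type minus the conditional control. The scavenger receptor gene Marco was at 224 and 224 FPKM in the control runs and at 167 and 168 FPKM in the normal-marker runs. Siglec5, the table's name for Siglec-F, was at 199 and 194 FPKM against 91.9 and 96.3 FPKM (-1.06). Both stood far above the aberrant-marker library, where Marco was at 0.258 FPKM. Cidec, a lipid droplet protein, averaged 299 FPKM against 94.6 FPKM (-1.65), Il18, a cytokine, 409 against 162 FPKM (-1.33), and Krt79, a keratin, 477 against 205 FPKM (-1.21). Against the conditional control none of these 5 genes passed the 4-fold rule. Against the wild type, at 405 FPKM of Cidec, Cidec was called lower (-2.08), as was Perp, so 2 identity genes were called lower and 0 higher there. On the other side, Car4, a carbonic anhydrase, was at 316 and 299 FPKM against 1137 and 1110 FPKM (1.87), and Fabp4, a fatty acid binding protein, averaged 104 against 286 FPKM. Pparg, the nuclear receptor of the lineage, averaged 95.3 against 147 FPKM, Itgax (CD11c) was at 253 and 253 FPKM against 298 and 294 FPKM, and Mrc1, the mannose receptor, at 169 and 164 FPKM against 238 and 231 FPKM.

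**Figure D3:**
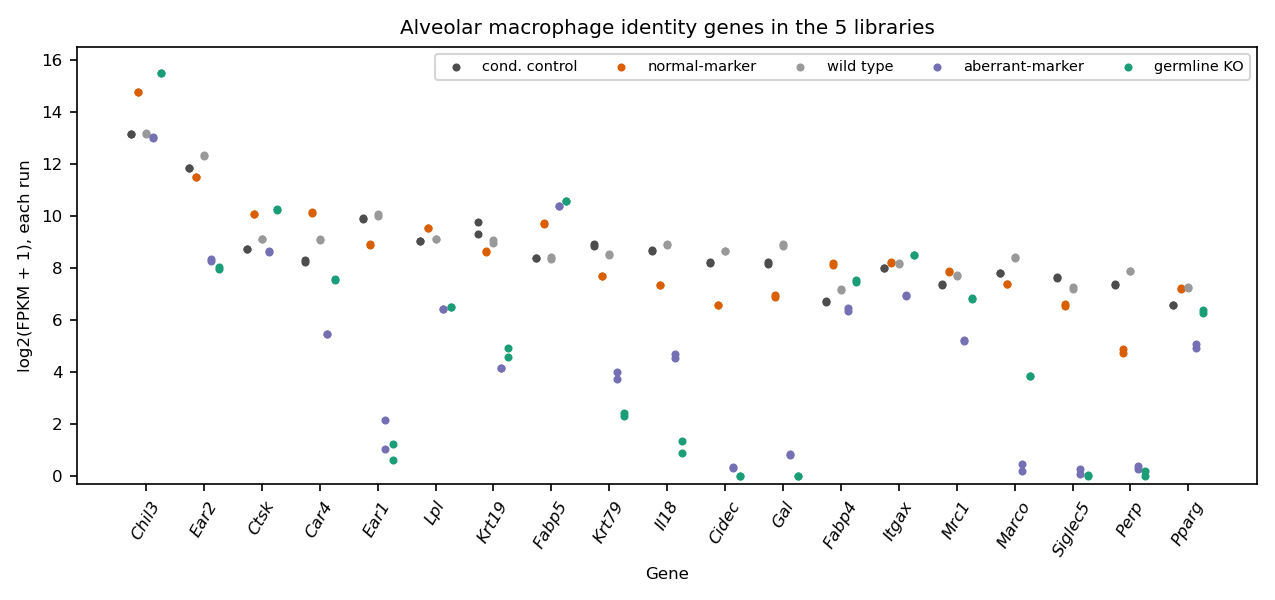
Each point is 1 run, in log2(FPKM + 1), for identity genes of alveolar macrophages in the 5 libraries. Siglec5, Krt79 and Cidec are lower in the normal-marker library than in the conditional control (log2 differences of -1.06, -1.21 and -1.65) and lower still in the aberrant-marker library, and Perp is lower than both controls.

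The gene lists were read against a median log2 difference of 0 over all 11336 genes and 0.935% called higher and 0.838% called lower. A gene entered where it had at least 1 FPKM in at least 2 of the 10 columns, so a member could enter through any library. Of the growth factor, matrix and remodelling list, 26 of 35 genes in the table were compared, 3 were called higher (Igf1, Mmp12 and Gdf15) and 0 lower, with a median of 1.29. The same list had a median of 0.06 between wild type and conditional control. Just short of 4-fold in it was Spp1, the matrix cytokine osteopontin, at 461 and 453 FPKM against 1755 and 1756 FPKM (1.94). Trem2 was at 52.2 and 49.1 FPKM against 190 and 189 FPKM (1.88). Gpnmb, a glycoprotein of lipid-loaded macrophages, differed less, at 131 and 134 FPKM against 315 and 314 FPKM (1.24). The wild type held 229 FPKM of Gpnmb. Of 28 alternative activation genes, 4 were higher (Igf1, Mmp12, Arg1 and Ptgs1) and 0 lower, with a median of 0.50. Retnla and Mgl2, other genes of that state, were nevertheless at 0 in both control runs and 2.78 and 1.91 FPKM in the normal-marker runs (Retnla), and at under 1 read in all 4 runs (Mgl2). Of 13 ribonuclease and chitinase-like genes, 2 were higher, with a median of 0.73.

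Among the metabolic lists, glycolysis and gluconeogenesis had 2 of 27 genes higher (Fbp1 and Hk3) and a median of 0.35. The phospholipase and eicosanoid list had 3 of 26 higher (Pla2g2d, Ptgs1 and Pla2g7) with a median of -0.08. For the wild type minus the conditional control the medians of these lists were -0.52 and -0.39, larger in size. Cholesterol synthesis and uptake had 1 of 31 higher (Insig1), and lipid storage and wax synthesis 1 of 33 higher (Awat1) and 1 lower (Agpat2). Of 41 lysosomal hydrolases, 0 were higher and 1 lower (Arsa), and of 32 lysosomal membrane and pump genes 0 were called, with medians of 0.25 and 0.24. Ctsk and Cd63 nevertheless stood higher in level, Ctsk at 427 and 428 FPKM against 1071 and 1080 FPKM (1.33) and the tetraspanin Cd63 at 412 and 414 FPKM against 1388 and 1369 FPKM (1.74). Oxidative phosphorylation had 0 of 60 genes called and a median of -0.03.

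Of 32 inflammatory cytokines and chemokines, 0 were called against the conditional control and the median was 0.00. The list summed to 4520 and 4534 FPKM in the control runs and to 8176 and 8129 FPKM in the normal-marker runs, most of it the chemokine gene Ccl6 (1.00, not called). Against the wild type 3 of the list were called higher (Ccl3, Ccl9 and Ccl17), and 14 were called higher in the germline knockout over wild type. The chemokine genes Ccl8 and Ccl24 were at 0 in all 4 runs, and Ccl7 was at under 1 read. Cxcl16, a chemokine and scavenger receptor, was at 0.191 and 0.153 FPKM against 15.8 and 22.0 FPKM, a mean under the floor. Of 33 haem, iron and oxidative stress genes and of 21 MHC class II genes, 0 were called. Complement had 2 of 13 genes higher (C4b and C1qb) with a median of 0.15, and the interferon response 1 of 38 higher (Ifi47) with a median of 0.28. For the wild type minus the conditional control those medians were -0.29 and -0.18. Heat shock genes gave 1 higher (Hsf1, 2.74 and 2.82 FPKM against 20.6 and 22.2 FPKM) and 2 lower (Hspa14 and Hspa1a) of 31, and immediate early genes 1 lower (Cd69) of 33. Splicing and elongation genes gave 0 higher and 3 lower (Ppie, Ppih and Ccnt1) of 51 and a median of -0.36, against 0.06 between wild type and conditional control. Ppie and Ppih, spliceosomal cyclophilins, were at 25.1 and 26.4 FPKM against 0 and 0 FPKM, and at 35.1 and 32.7 FPKM against 3.43 and 3.69 FPKM.

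**Figure D4:**
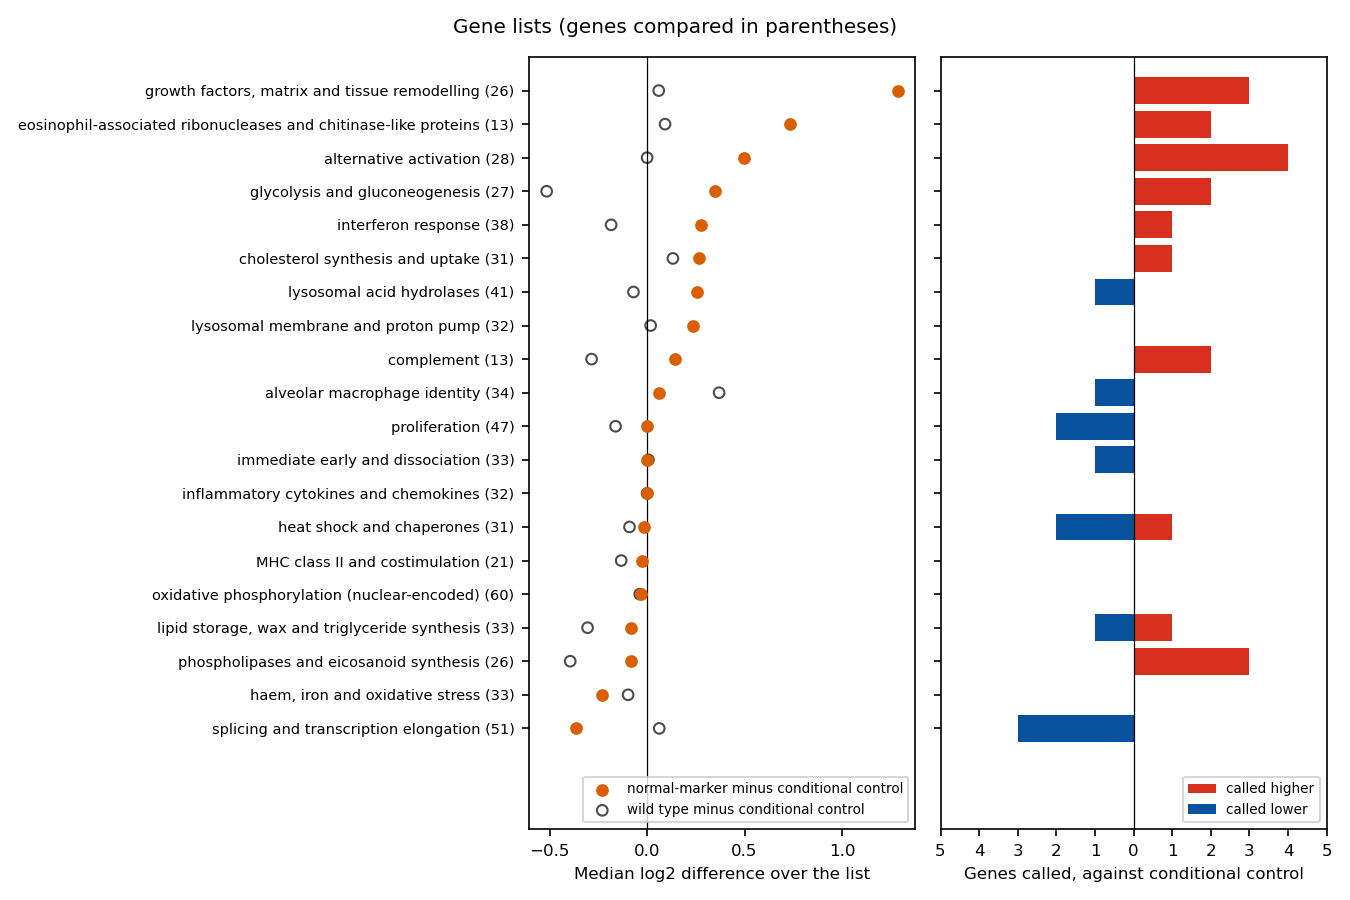
Left, the median log2 difference over the compared genes of each list, for the normal-marker library minus the conditional control (filled) and for the wild type minus the conditional control (open); right, the number of genes called higher and lower. The growth factor and matrix list stands at a median of 1.29, and the splicing list at -0.36.

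Markers of other cells were checked over whole lists. T cell genes summed to 334 and 332 FPKM in the control runs and 267 and 270 FPKM in the normal-marker runs, most of it Cd2, and Cd3e, Cd3d, Cd3g and Lat were at 0 in all 4. Monocyte-derived and interstitial macrophage genes summed to 1222 and 1213 FPKM against 1667 and 1702 FPKM, with 1 of 23 called (C1qb). Sirpa, the highest member, was at 541 and 520 FPKM against 501 and 525 FPKM. The part of such cells in the rises was not tested. Erythroid genes summed to 55.3 and 47.0 FPKM against 336 and 344 FPKM, nearly all Ahsp, the chaperone of alpha-globin, at 54.8 and 46.2 FPKM against 334 and 342 FPKM (2.72), while Alas2 was at 0 in all 4 runs. Lung epithelial genes had 2 of 12 called lower (Napsa and Bpifa1), and summed to 3675 and 3659 FPKM against 3504 and 3495 FPKM, mostly Lyz1. Sftpb and Sftpc were at 0 in all 4 runs, but Epcam was at 128 and 123 FPKM against 32.0 and 31.7 FPKM, and Scgb1a1 at 38.3 and 41.1 FPKM against 24.6 and 35.6 FPKM. Its part in the falls was not tested. Neutrophil genes summed to 64.4 and 69.7 FPKM against 78.9 and 83.5 FPKM, with S100a9, Ly6g and Mpo at 0. The highest member was Mmp8, at 43.3 and 44.0 FPKM against 38.7 and 40.5 FPKM. The higher sum thus came from other members of the list, which are not named here. In the list, 3 genes reached 1 FPKM in the control and 4 in the normal-marker library. Of 7 compared, 0 were called against the conditional control and 1 was called higher against the wild type. Eosinophil, basophil and mast cell genes summed to 202 and 198 FPKM against 91.9 and 96.3 FPKM, nearly all Siglec5, with Epx and Ccr3 at 0. Endothelial and stromal genes summed to 3.89 and 4.82 FPKM against 5.08 and 4.66 FPKM, with Pecam1, Cdh5, Col1a1 and Col3a1 at 0. Acta2, the highest member, was at 2.18 and 2.80 FPKM against 2.88 and 2.53 FPKM. B cell and NK cell sums were 468 and 468 FPKM against 421 and 417 FPKM (nearly all Xbp1) and 2.56 and 2.68 FPKM against 4.20 and 4.14 FPKM (nearly all Rora). Cd79a, Ms4a1, Nkg7 and Klrd1 were at 0. Dendritic cell genes gave 1 of 22 called higher, Batf3, at 7.05 and 9.07 FPKM against 50.6 and 41.2 FPKM. Cst3, the highest member, was at 1041 and 1086 FPKM against 1020 and 1027 FPKM, and 12 members reached 1 FPKM in each library. Flt3 and Cd209a were at 0, and Ccr7, at 1564 FPKM in the aberrant-marker library, was at 0.13 FPKM or less in all 4 runs.

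The calls were then compared with those between the germline knockout and the wild type, which use none of the 4 samples. Of the 106 genes called higher, 26 (24.5%) were also higher in the germline knockout over wild type, where 2.73% of all genes were called, or 6.96% of 4451 at 20 FPKM or more in either library. These were 8.39% of the 310 genes called there, against 0.935% of all genes. Another 4 of the 106 were called in the opposite direction, where 3.36% of all genes were called lower. The 26 include Arg1, Mmp12, Igf1, Fbp1, Mfge8, Fstl1, Ecm1, Wfdc17, Rnase2a, C1qb, Ptgir, Hk3, Pla2g7, Fam20c, Rgcc, AA467197, H2-M2 and H2-Q7. AA467197 stood at 6.90 and 6.82 FPKM in the control runs, at 70.7 and 80.1 FPKM in the normal-marker runs, at 0 in the wild type and at 234 FPKM in the germline knockout. Of the 95 lower genes, 10 (10.5%) were also lower in the germline knockout, where 3.36% of all genes were called, or 8.56% of those at 20 FPKM or more. They were 2.62% of the 381, against 0.838% of all genes, and 2 of the 95 were opposite (2.73% of all genes). The shared lower genes were Perp, Kcna3, Slc6a4, Bub1b, Mis18a, Inadl, Arsa, Aacs, Akr1b10 and Tmem138. None of the 26 or the 10 is on a sex chromosome.

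Genes picked in other comparisons were also followed here, a measure chosen after seeing the data. The 310 genes higher in the germline knockout over wild type had a median log2 difference of 0.33 in the normal-marker library, and 108 of them (34.8%) were 2-fold or more higher and 46 (14.8%) 2-fold or more lower. The 381 lower genes had a median of -0.38, with 7.87% and 23.4%. The 4815 uncalled genes at 20 FPKM or more in any library had a median of -0.07, with 9.74% and 12.5%. Genes called in the aberrant-marker fraction over wild type gave medians of 0.00 (539 higher, 4.75% of all genes) and -0.19 (443 lower, 3.91%), against -0.09 for the 4524 uncalled genes. Of the 539, 22.1% were 2-fold or more higher and 14.3% 2-fold or more lower, and of the 443, 9.93% and 20.1%, against 9.81% and 12.6% of the uncalled genes. By list, 16 identity genes lower in the germline knockout had a median of -0.80 here, with 7 of them 2-fold or more lower, 14 below 0 and 0 of them 2-fold higher. The 10 alternative activation genes higher in the germline knockout had a median of 1.88, with 7 of them 2-fold or more higher, while 14 inflammatory genes had a median of 0.01.

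**Figure D5:**
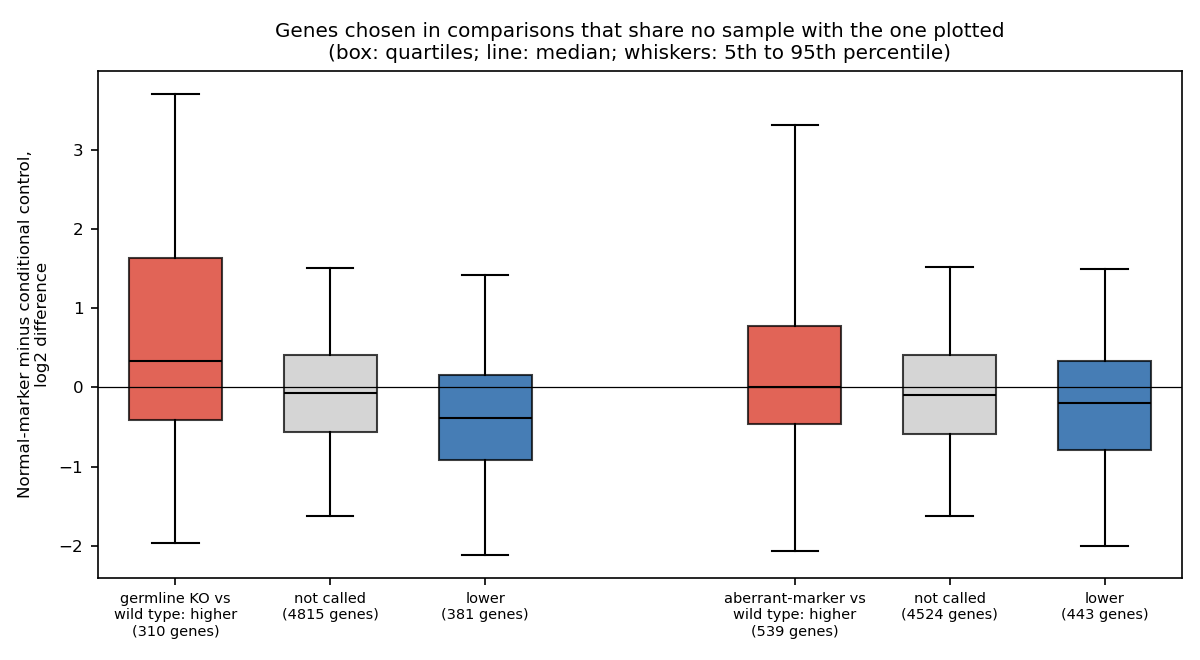
Boxes show quartiles, the line the median and whiskers the 5th to 95th percentiles of the normal-marker minus conditional control log2 difference, for genes chosen in comparisons that share no sample with it. Genes higher in the germline knockout sit at a median of 0.33 and those lower at -0.38, while genes higher in the aberrant-marker library sit at 0.00.

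The other overlaps between comparisons without a shared sample are given with the share of all genes called beside each. With the control libraries exchanged, 25 of the 155 genes higher in the normal-marker library than in the wild type were also higher in the aberrant-marker library than in the conditional control. They were 16.1% of the 155, where 4.09% of all genes were called, and 5.39% of the 464, where 1.37% were called. Of the 164 lower genes, 11 were shared, which were 6.71% of the 164 (3.76% of all genes) and 2.58% of the 426 (1.45% of all genes). In the opposite direction, 6 of the 155 were called (3.76% of all genes) and 7 of the 164 (4.09% of all genes).

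With the aberrant-marker library set against the wild type, 24 of the 106 genes higher than in the conditional control were shared, which were 22.6% of the 106 (4.75% of all genes) and 4.45% of the 539 (0.935%). Of the 95 lower genes, 7 were shared, which were 7.37% of the 95 (3.91%) and 1.58% of the 443 (0.838%). Here 6 of the 106 were opposite, where 3.91% of all genes were called lower, and 8 of the 95, where 4.75% were called higher. For the germline knockout against the conditional control, 31 of the 155 genes higher than in the wild type were shared, which were 20% of the 155 (2.08% of all genes) and 13.1% of the 236 (1.37%). Of the 164 lower genes, 17 were shared, which were 10.4% of the 164 (3.27%) and 4.58% of the 371 (1.45%). Opposite were 4 of the 155 (3.27% of all genes) and 7 of the 164 (2.08% of all genes).

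The differences have no replicate check, since each group is 1 library. The number of calls rests on the floor: at 50 FPKM it was 29 higher and 16 lower, and the higher genes then include Fbp1, Mmp12, Igf1, Ecm1, Mfge8, Rgcc and Wfdc17.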

How the data were processed

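RNA of alveolar macrophages was measured in 10 samples of 5 groups. Per the labels' protocols, cDNA was made from 100 pg of total RNA with a SMARTer low-input kit and 18 PCR cycles. After shearing, an Ovation Ultralow kit gave the libraries. The authors deposited FPKM values for 45913 transcripts in 10 columns, all matched to a sample title (0 columns were left out). Per the submitters' processing notes, the tools were Bowtie 1.1.2 and eXpress 1.5.1, whose steps are not described; the genome build is not given in the sources used here.

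FPKM values were summed per Entrez gene (26173 genes) in Python 3.11.15 with numpy 2.4.6, pandas 2.3.3 and matplotlib 3.10.9. The column sums were 625660 to 668491 and were not rescaled. The filter kept 11336 genes that reached 1 FPKM in 2 or more columns, and a pseudocount of 1 FPKM was added before log2. Depth was read from the steps of 1 read in low values and is approximate. Because the 2 samples of a group differed by little more than the sampling noise, they were counted as 1 library, and a rule of size replaced any test. The scale understates changes of low genes. The rule was checked on simulated data.

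Genes were named as follows: Bach2, the 12 largest rises and 12 largest falls against both controls, the 5 largest in each direction against the conditional control only, up to 4 called genes of each list, the highest marker of each list of other cells, and 14 genes in every comparison. Predicted genes were counted and not named. Further genes were chosen with their values in view. The members and lists were chosen with earlier results of these data known. Of 888 list genes, 863 were found, and the rest are not analysed here. Some list genes are not reported here. Alternatives were other pseudocounts, floors, fold thresholds, filters, scalings, transcript choices and leaving out runs.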

Additional observations from a re-analysis of the deposited data

Results flagged for a closer look

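In 6 genes the normal-marker library differed from the conditional control in the opposite direction to the difference between the germline knockout and the wild type, with both differences passing the 4-fold rule in every pairing of runs. They are 4 of the 106 higher genes, where 3.36% of all genes were called lower in the germline knockout, and 2 of the 95 lower genes, where 2.73% were called higher. The difference between these effects was not tested, since each group is 1 library. Pafah1b3, a subunit of a platelet-activating factor acetylhydrolase, had a log2 difference of -3.09 here and 2.20 in the germline knockout. Vps36, a subunit of the ESCRT-II sorting complex, had -2.35 and 2.78. The peroxisome gene Pex11a had 2.48 and -4.14, Ermp1 2.02 and -3.74, Adck3 2.08 and -4.42, and Hyi 2.64 and -4.19.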

How the results depend on the processing

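Over the alternatives, 0 of 1156 log2 differences of 68 named genes were counted as reversed. A change of sign was counted only for genes called against the conditional control, so uncalled named genes were not checked for it. Counts moved with the floor, the pseudocount and the threshold. Against the conditional control, 106 higher and 95 lower genes became 52 and 55 with a pseudocount of 5 FPKM, 275 and 273 with a floor of 10 FPKM, 29 and 16 with a floor of 50 FPKM, and 379 and 458 at 2-fold. Against both controls, 44 and 30 became 24 and 13, 130 and 92, 17 and 3, and 171 and 168 in the same order. For genes shared with the germline knockout over wild type, 26 higher and 10 lower became 59 and 26 at the floor of 10 FPKM and 13 and 2 at 50 FPKM, and the higher genes 17 with the pseudocount of 5 FPKM. For the aberrant-marker library over the conditional control, 25 and 11 became 70 and 29 at 10 FPKM and 13 and 3 at 50 FPKM, and the lower genes 5 with the pseudocount. Over wild type, 24 and 7 became 69 and 22, then 11 and 2, and the higher genes 15 with the pseudocount. For the germline knockout over the conditional control, 31 and 17 became 62 and 34, then 14 and 4, and the lower genes 9 with the pseudocount. Fewer or more genes can pass under each of these by construction. Median-of-ratios scaling gave 114 higher genes (102 of them among the 106) and 73 lower. Leaving out genes of the X and Y chromosomes, an alternative chosen after seeing the data, gave 102 and 93.

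Leaving out each run in turn gave 106 to 120 higher and 95 to 111 lower genes against the conditional control, and 44 to 47 and 29 to 34 against both controls. The overlaps were 26 to 29 and 10 to 12 (germline knockout over wild type), 24 to 27 and 11 to 16 (aberrant-marker over conditional control), 24 to 27 and 7 to 9 (aberrant-marker over wild type), and 30 to 34 and 17 to 20 (germline knockout over conditional control). No paired analysis was possible because no test was run and the labels give the groups no shared replicate numbers. With 1 library per group, depth limits the values under about 1 FPKM and the number of libraries limits every difference.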
